A study of Mus musculus with 15 samples.

Results

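The 51 genes described here encode nucleolar factors that build ribosomes, the particles that make protein, and they were followed in the tibialis anterior muscle of the mouse shin. The set was chosen because 4 of its genes (Tsr1, Wdr43, Dnttip2 and Srfbp1) were among the clearest rises in tumour-bearing mice given IgG. Those values picked the set, so IgG against control is given as a description with no test, and anti-PD-L1 against anti-CD8a, which shares no library with it, carries the tests. All 51 genes were found among the 55416 genes of the deposited tables, 52083 of which carried a symbol, and all 51 were among the 14372 genes tested.

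RNA sequencing gave 15 libraries from male C57BL/6 (C57BL/6NCrlOri) mice, 6 to 8 weeks old at the start. In 3 groups, cells of the line KrasIKKaL had been delivered into the trachea. Of these, the IgG group received an isotype antibody, rat IgG2b (n = 4, tagged anti-IgG in the treatment label). The anti-PD-L1 group received 200 µg per kg of an antibody to PD-L1, a ligand that restrains T cells (n = 3). The anti-CD8a group received 200 µg of an antibody to CD8a, the coreceptor of cytotoxic T cells (n = 3). Both of these antibodies were given 3 times a week into the abdomen. Control mice had no tumour cells and no antibody is named for them (n = 5), so the effects of tumour and of injected antibody cannot be told apart against control. The 2 antibody doses are stated in different units, so target and dose cannot be told apart either. The series states an interest in cachexia, which wastes muscle in people with cancer, and in immune-related harm to muscle.

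Ribosomes are assembled in the nucleolus from RNA that RNA polymerase I transcribes as 1 long precursor. The small-subunit processome, made of the U3 snoRNP and the UtpA, UtpB and Mpp10 complexes with many single factors, folds and cuts the part that becomes the small subunit. Other factors carry the pre-40S and pre-60S particles through modification, cutting and export. In skeletal muscle, ribosome number helps set how much protein a fibre can make, and the transcription factor Myc is a known activator of many of these genes.

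Promoter sequence was looked at because these genes moved together. Of the 51 genes, 42 were matched by symbol to RefSeq promoters (GRCm38.p6, 250 bases before to 50 bases after the start). The canonical E-box CACGTG, a palindrome to which Myc can bind, stood in 10 of these 42 windows (23.8%), against 17.4% of 109 other ribosome assembly genes and 8.91% of 17492 genes with a promoter in the table. The 6 windows of 26 bases below show it in capitals, in 4 genes that were called higher in anti-PD-L1 against anti-CD8a (Tsr1, Wdr43, Pes1 and Nop2) and in 2 that were not (Nol11 and Imp4). Each reads 5′ to 3′ along the strand of its gene.
Tsr1, chr11:74898094-74898119, plus strand, 25 bases after the start: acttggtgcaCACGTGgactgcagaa
Wdr43, chr17:71616222-71616247, plus strand, 18 bases after the start: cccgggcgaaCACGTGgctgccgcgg
Pes1, chr11:3963967-3963992, plus strand, 3 bases after the start: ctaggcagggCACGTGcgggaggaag
Nop2, chr6:125131813-125131838, plus strand, 60 bases before the start: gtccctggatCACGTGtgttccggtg
Nol11, chr11:107189409-107189434, minus strand, 43 bases before the start: tgagcgttcgCACGTGgtctagactc
Imp4, chr1:34439698-34439723, plus strand, 121 bases before the start: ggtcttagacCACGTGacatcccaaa

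The other genes with the E-box were Utp20, which was called, and Utp18, Ltv1 and Rrn3, which were not; Rrn3 had 2 copies. In all, 5 of the 10 genes with the E-box were called higher in that comparison, against 22 of the 42 with a window. The variant CACATG, read on both strands, stood in 21.4% of the 42 windows, against 8.26% of the other assembly genes and 13.2% of all. The ETS-type motif CCGGAAG stood in 35.7%, against 46.8% and 12.9%. The NRF1-type palindrome CGCATGCG stood in 4.76%, against 8.26% and 2.77%. The YY1-type motif GCCATCTTG stood in 0 of the 42, against 2.75% and 1.65%. Both strands were read for each motif and overlapping matches were kept. These are matches of letters, not shown to be bound.

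Library totals were 15894846 to 22459377 expected counts, and a level of 3 counts corresponds to 0.134 to 0.189 CPM, reads per gene relative to the normalised size of the library. The 51 genes lay well above that: the lowest count of any of them in any library was 67 (Utp15) and the highest 9174. The 8 muscle fibre markers (Acta1, Ckm, Myh4 and others) summed to 62588 to 94973 CPM in IgG, 50734 to 86214 in anti-PD-L1, 84970 to 93790 in anti-CD8a and 80188 to 111646 in control, so every library had the RNA of muscle fibres. Most T cell markers were at or near 0, with Cd8a at 0 in 10 of 15 libraries, Cd3d in 11 and Cd4 in 7. Cd3e was higher, at 10 to 25 counts in control and 5 to 9 in anti-CD8a, against 0 to 2 in IgG. In anti-PD-L1, Cd3e had 0, 8 and 0 counts, and Cd4 reached 29 counts in replicate 2. The share of counts from mitochondrial genes averaged 14.5% ± 1.69 (SD) over the IgG libraries, 12.8% ± 1.67 over anti-PD-L1, 21.3% ± 1.53 over anti-CD8a and 20.5% ± 2.27 over control. No label ties each library to its own mouse, so p-values measure the spread between these libraries. In bulk muscle, fewer cells of a type and less RNA per cell cannot be told apart.

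The 51 genes as a whole stood highest in IgG, next in anti-PD-L1, and close to control in anti-CD8a. The median of the 51 log2 ratios to the control mean was 1.04, 0.92, 1.14 and 1.01 in the IgG libraries. It was 0.56, 0.95 and 0.58 in the anti-PD-L1 libraries and 0.13, 0.14 and 0.11 in the anti-CD8a libraries. The control libraries lay between -0.11 and 0.12. The lowest IgG library, replicate 2 at 0.92, and the highest anti-PD-L1 library, also replicate 2, at 0.95 nearly met, so these groups overlapped, while anti-PD-L1 and anti-CD8a did not. Averaged over libraries the median was 1.03 ± 0.09 in IgG, 0.70 ± 0.22 in anti-PD-L1, 0.13 ± 0.02 in anti-CD8a and 0.00 ± 0.09 in control (SD), or 2.04, 1.62, 1.09 and 1.00 times the control mean. On the authors' TPM, which adjusts for gene length, the 51 genes summed to 1428 ± 219 in IgG, 1165 ± 223 in anti-PD-L1, 601 ± 28.8 in anti-CD8a and 522 ± 43.0 in control.

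**Figure D1:**
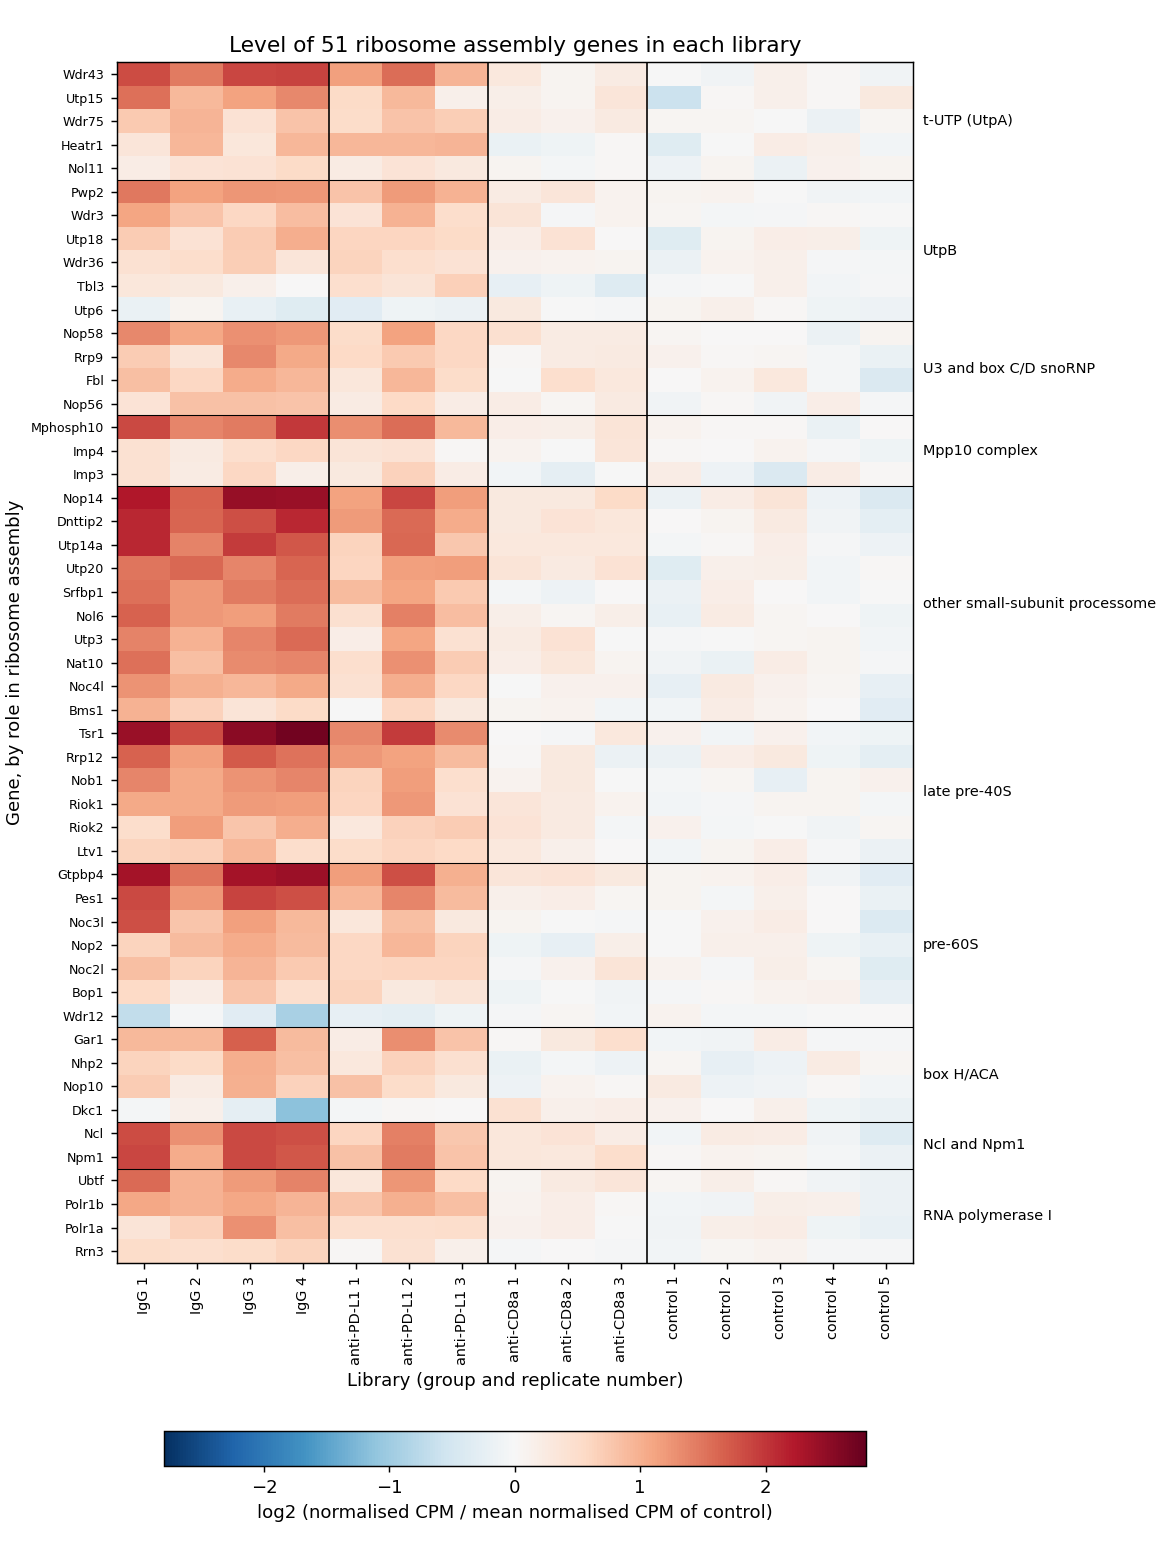
Each row is 1 of the 51 genes, grouped by role, and each column 1 library; colour gives log2 of the TMM-normalised CPM over the control mean, from blue (lower) to red (higher). Most rows are red in the 4 IgG libraries, paler in the 3 anti-PD-L1 libraries and near white in anti-CD8a and control; Utp6, Wdr12 and Dkc1 do not follow.

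Per length, Npm1, Ncl and Nop10 had the highest levels in every group. Npm1 averaged 273.8 ± 65.6 TPM in IgG, 206.6 ± 55.6 in anti-PD-L1, 96.5 ± 12.5 in anti-CD8a and 74.9 ± 6.32 in control. The lowest group means were those of Imp4 in IgG, 3.04 ± 0.61 TPM, Utp15 in anti-PD-L1, 2.58 TPM, and Noc3l in anti-CD8a and control, 1.62 ± 0.13 and 1.54 ± 0.19 TPM. The median gene stood at 14.3 TPM in IgG, 12.5 in anti-PD-L1, 7.42 in anti-CD8a and 6.32 in control.

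In anti-PD-L1 against anti-CD8a, 29 of the 51 genes were called higher and 0 lower at an adjusted p under 0.05 (edgeR quasi-likelihood test, adjusted over all genes tested). That is 56.9% of the set, where 12.1% of all genes tested were called higher and 7.65% lower. At an unadjusted p under 0.05, 36 were higher and 0 lower, and DESeq2 called 26 higher and 0 lower. Shares of all genes called, here and below, belong to the main edgeR fit at the adjusted p. None is given for an unadjusted p, for DESeq2 or for the other alternatives. The median log2 fold change was 0.54 (range -0.28 to 1.47), against 0.05 over all genes tested. In 39 genes every anti-PD-L1 library lay above every anti-CD8a library, and in 3 every one lay below, where 21.7% and 16.6% of all genes tested separated in these directions. Leaving aside the 4 genes that led to the choice, 25 of 47 were called higher, with a median of 0.51. Without anti-PD-L1 replicate 2 the count was 14, and without anti-CD8a replicate 1, 2 or 3 it was 16, 17 and 19; no gene was called lower in any of these. A set of 13 genes kept the call under each of the 16 alternatives run: Dnttip2, Gtpbp4, Heatr1, Mphosph10, Nop2, Pes1, Polr1b, Pwp2, Rrp12, Srfbp1, Tbl3, Tsr1 and Wdr43.

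Other cell types differed between these groups. The 8 macrophage markers summed to 552, 164 and 267 CPM in the anti-PD-L1 libraries, against 60.1, 92.0 and 208 CPM in anti-CD8a, and 6 of 8 were called higher in anti-PD-L1. The 4 neutrophil markers summed to 10.9 to 47.1 CPM in anti-PD-L1, against 2.61 to 8.01 CPM in anti-CD8a, with 2 of 3 tested called higher and Ly6g at 0 in 13 of 15 libraries. Replicate 2 gave the highest anti-PD-L1 value in 41 of the 51 genes. It also had the highest neutrophil sum of the 3 anti-PD-L1 libraries (47.1 CPM), and the highest T cell (2.31), endothelial (182) and Schwann cell (44.2) sums, while replicate 1 had the highest macrophage sum. The macrophage sum was 59.0 to 98.2 CPM in IgG, against 87.2 to 158 in control. Of its 8 genes, 6 had a log2 fold change below 0 and 2, Cd68 and Cd14, above 0. Cd68 stood at 5.11 to 37.0 CPM in IgG and 2.12 to 3.62 in control. Cd14 overlapped, at 29 to 56 counts in IgG and 22 to 57 in control. The 6 proliferation markers summed to 31.6 to 34.7 CPM in anti-PD-L1, against 22.3 to 28.0 CPM in anti-CD8a, nearly all of it Pcna, with Mki67 at 0.905 CPM or less in anti-PD-L1; edgeR called 0 of 4 tested, and 1 was higher at an unadjusted p under 0.05. Of 6 fibroblast markers 2 were called higher and 3 lower, of 4 satellite cell markers tested 1 was called higher, and of the 8 muscle fibre markers 1 was called lower. The part of other cells in the difference was not tested. Without mitochondrially encoded genes, 27 of the 51 were called higher and 0 lower.

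**Figure D2:**
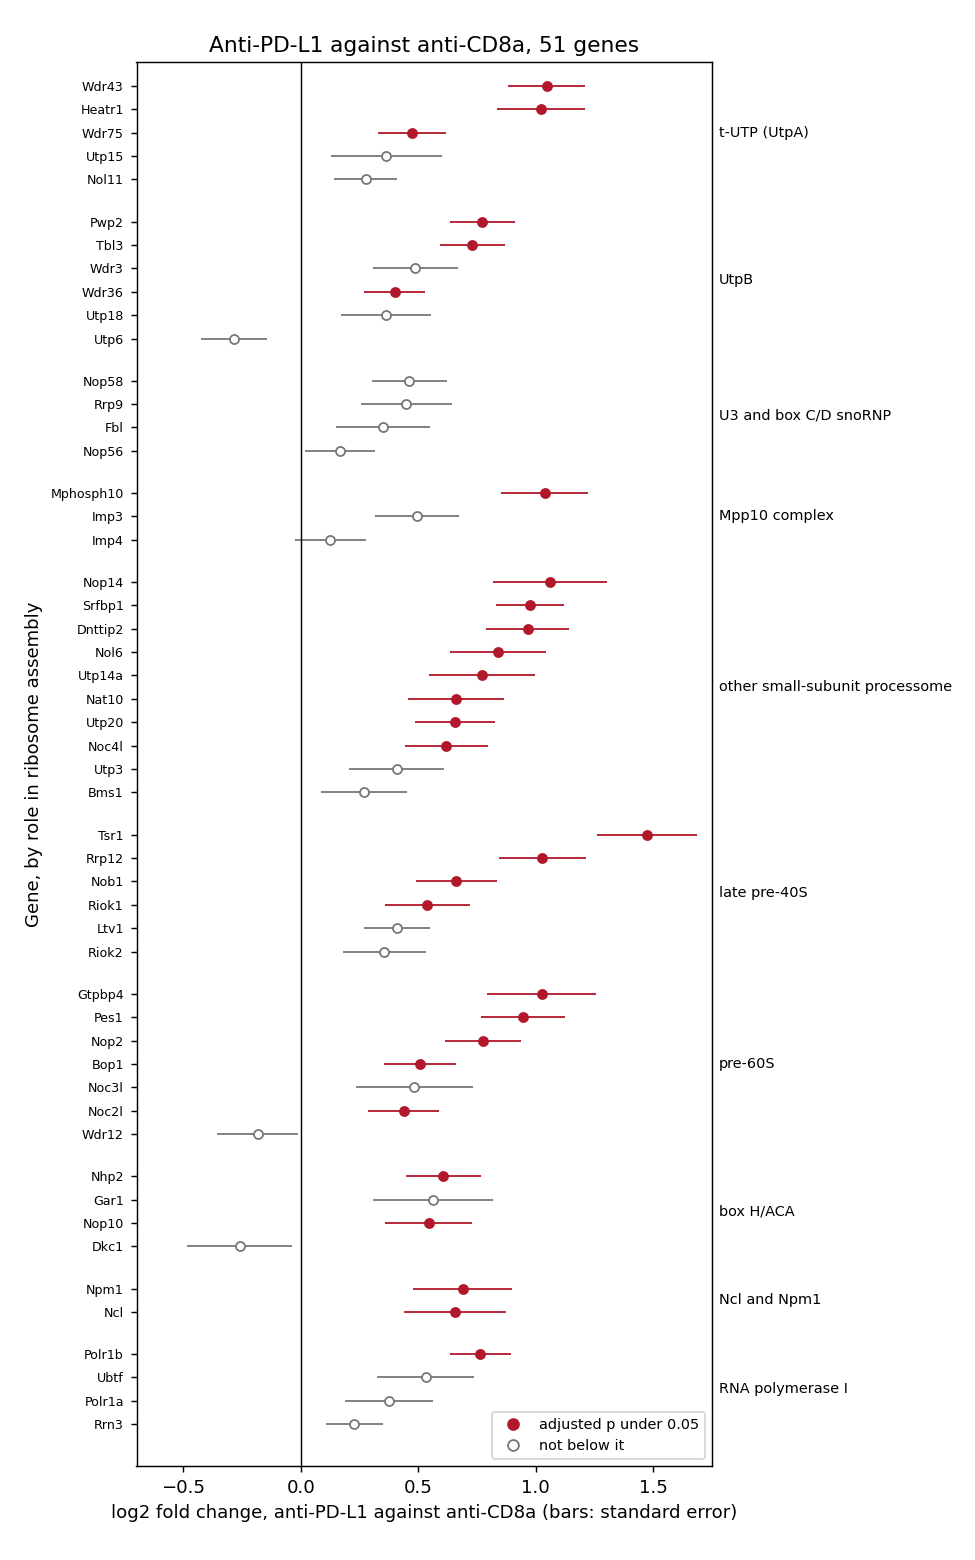
Points are log2 fold changes of the 51 genes in anti-PD-L1 against anti-CD8a, with the standard error as a bar; filled points passed an adjusted p of 0.05. The 29 filled points all lie right of 0, from Wdr36 at 0.40 to Tsr1 at 1.47, and the points left of 0 (Utp6, Dkc1 and Wdr12) are open.

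The UtpA complex binds the first part of the precursor RNA and, in yeast and human cells, is also linked to its transcription. Of its 5 members, 3 were called higher in anti-PD-L1 against anti-CD8a and 0 lower. Wdr43 had 83.9, 64.7, 86.3 and 87.8 CPM in IgG, and 52.6, 70.1 and 45.7 CPM in anti-PD-L1. It had 29.0, 24.8 and 27.6 CPM in anti-CD8a, and 23.4, 22.1, 26.1, 24.2 and 22.1 CPM in control. Every IgG and anti-PD-L1 library lay above every anti-CD8a and control library, and anti-PD-L1 replicate 2 reached into the IgG range. Wdr43 was higher in anti-PD-L1 than in anti-CD8a by 1.05 ± 0.16 (log2, SE; adjusted p = 0.00109). Heatr1, a large repeat protein of the same complex, had 14.4, 21.7, 14.3 and 21.8 CPM in IgG, 21.9, 21.7 and 22.2 in anti-PD-L1, 10.1, 10.6 and 11.7 in anti-CD8a, and 9.08 to 13.3 in control. It was thus as high in anti-PD-L1 as in the higher IgG libraries, and its log2 fold change against anti-CD8a was 1.02 ± 0.19 (adjusted p = 0.00245). Wdr75 was called at 0.47 ± 0.14 (adjusted p = 0.0312), but without anti-PD-L1 replicate 2 or 3, or any anti-CD8a library, the adjusted p was 0.0559 to 0.12. Nol11, which is found in the animal form of the complex, had the smallest difference of the 5: 15.96, 17.7 and 16.4 CPM in anti-PD-L1 and 14.3, 13.1 and 13.997 in anti-CD8a did not overlap, yet 0.28 ± 0.13 did not pass (adjusted p = 0.152). In IgG it had 15.8 to 19.7 CPM and in control 12.1 to 14.8. Utp15 did not pass either, at 0.36 ± 0.24 (adjusted p = 0.284).

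UtpB sits beside UtpA in the processome and contacts the U3 snoRNA. Of its 6 members, 3 were called higher and 0 lower. Pwp2 had 21.4, 28.3 and 24.1 CPM in anti-PD-L1 and 14.5, 15.5 and 13.3 in anti-CD8a, with 26.9 to 34.0 in IgG and 11.6 to 13.1 in control. The group means stood in the order of the whole set, and the log2 fold change of anti-PD-L1 against anti-CD8a was 0.77 ± 0.14 (adjusted p = 0.00225). Tbl3 had its highest values in anti-PD-L1: 17.3, 16.1 and 19.95 CPM, all above the 12.6 to 15.8 CPM of IgG, the 9.84 to 11.5 of anti-CD8a and the 11.9 to 13.8 of control. Its log2 fold change against anti-CD8a was 0.73 ± 0.14 (adjusted p = 0.00311). Wdr36, at 0.40 ± 0.13 (adjusted p = 0.0418), lost the call without any 1 of 5 libraries (0.0844 to 0.117). Wdr3 and Utp18, at 0.49 ± 0.18 and 0.36 ± 0.19, did not pass. Utp6 ran the other way: 25.2, 28.9 and 28.0 CPM in anti-PD-L1, all below the 38.04, 31.2 and 30.8 CPM of anti-CD8a, but -0.28 ± 0.14 did not pass (adjusted p = 0.159). In IgG it had 24.9 to 33.0 CPM and in control 28.2 to 34.3, ranges that overlap.

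The box C/D snoRNP proteins bind U3 and the guides that direct ribose methylation of ribosomal RNA. None of the 4 was called in anti-PD-L1 against anti-CD8a by edgeR (2 were higher and 0 lower at an unadjusted p under 0.05) or by DESeq2, with log2 fold changes of 0.17 to 0.46, all above 0. Nop58, a core protein, had 20.7, 31.8 and 21.7 CPM in anti-PD-L1 and 19.8, 17.1 and 17.0 in anti-CD8a, with 30.6 to 37.0 in IgG and 12.9 to 15.4 in control. The anti-PD-L1 group was split, 1 library at the IgG level and the other 2 just above anti-CD8a, and 0.46 ± 0.16 narrowly missed (adjusted p = 0.0506). Without anti-PD-L1 replicate 1 or 3 it passed, at 0.0276 and 0.0365. Nop56, its partner, had 25.8, 32.8 and 25.4 CPM in anti-PD-L1 and 25.6, 23.0 and 26.2 in anti-CD8a, which overlapped (0.17 ± 0.15, adjusted p = 0.446). It had 29.0, 38.8, 39.2 and 38.6 CPM in IgG and 20.6 to 25.1 in control. Fbl, the methyltransferase, and Rrp9, which is specific to U3, stood at 0.35 ± 0.20 and 0.45 ± 0.19 and did not pass.

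The Mpp10 complex helps U3 pair with the precursor. Mphosph10, its scaffold, had 34.0, 40.8 and 25.6 CPM in anti-PD-L1 and 15.7, 15.5 and 17.7 in anti-CD8a. In IgG it had 35.1 to 53.9 CPM and in control 12.1 to 14.6, so anti-PD-L1 met the IgG range and anti-CD8a stayed just above control. It was higher in anti-PD-L1 than in anti-CD8a by 1.04 ± 0.19 (adjusted p = 0.00219). Its partner Imp4 had 11.3, 11.6 and 9.05 CPM in anti-PD-L1 and 9.42, 8.74 and 11.2 in anti-CD8a, and the 2 groups overlapped (0.13 ± 0.15, adjusted p = 0.579). Imp4 had 10.5 to 13.1 CPM in IgG and 8.11 to 9.42 in control. Imp3, at 0.49 ± 0.18, did not pass (adjusted p = 0.0598).

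The 10 single factors of the processome held the most calls: 8 were called higher and 0 lower in anti-PD-L1 against anti-CD8a, with a median of 0.72. Dnttip2, whose yeast counterpart Fcf2 acts in early cleavage, had 112, 79.9, 90.4 and 112 CPM in IgG, and 58.8, 77.3 and 52.7 in anti-PD-L1. It had 31.0, 33.6 and 32.05 CPM in anti-CD8a, and 25.9, 27.0, 30.7, 23.9 and 21.2 in control. No pair of these groups overlapped, and anti-CD8a stood just above control. Its log2 fold change in anti-PD-L1 against anti-CD8a was 0.97 ± 0.18 (adjusted p = 0.00247). Srfbp1, the counterpart of yeast Bud22, had 29.8, 23.7, 28.0 and 30.4 CPM in IgG, and 18.8, 22.0 and 16.9 in anti-PD-L1. It had 9.80, 9.23 and 10.3 CPM in anti-CD8a, and 9.19, 11.7, 10.3, 9.73 and 10.2 in control. Here anti-CD8a lay within the control range, IgG stood apart above all others, and the log2 fold change of anti-PD-L1 against anti-CD8a was 0.98 ± 0.15 (adjusted p = 0.000928).

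Nop14, which joins the processome with Noc4l, gave the largest change among these 10 factors. It had 30.4, 51.1 and 31.6 CPM in anti-PD-L1 and 16.9, 17.0 and 20.3 in anti-CD8a, with 65.9, 44.0, 75.8 and 74.1 in IgG and 10.5 to 17.9 in control. The difference of anti-PD-L1 from anti-CD8a was 1.06 ± 0.24 (adjusted p = 0.00838), and without anti-PD-L1 replicate 2 the adjusted p was 0.0512. Bms1, a GTPase, had the smallest difference of the 10: 22.0, 33.4 and 26.6 CPM in anti-PD-L1 overlapped 23.4, 23.6 and 21.1 in anti-CD8a (0.27 ± 0.18, adjusted p = 0.309). It had 28.3 to 43.7 CPM in IgG and 17.9 to 25.7 in control. The other called factors were Nol6 (0.84 ± 0.20), Utp14a (0.77 ± 0.22), Nat10, which acetylates ribosomal RNA (0.66 ± 0.21), Utp20 (0.66 ± 0.17) and Noc4l (0.62 ± 0.18). All 5 lost the call without anti-PD-L1 replicate 2, with adjusted p values of 0.0662 (Utp20), 0.0694 (Nol6), 0.125 (Noc4l), 0.17 (Utp14a) and 0.203 (Nat10). Without 1 or more of the anti-CD8a libraries, Utp20, Noc4l, Utp14a and Nat10 also lost it. Utp3, at 0.41 ± 0.20, did not pass.

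Late pre-40S factors finish the small subunit. Of 6, 4 were called higher and 0 lower. Tsr1, a GTPase-like factor that holds the immature particle inactive, gave the largest change of all 51 genes. It had 129, 85.4, 139 and 156 CPM in IgG, and 61.1, 94.1 and 59.9 in anti-PD-L1. It had 24.2, 23.6 and 29.6 CPM in anti-CD8a, and 26.3, 22.7, 26.3, 22.8 and 22.3 in control. The anti-CD8a libraries overlapped the control libraries, both other groups lay far above, and anti-PD-L1 replicate 2 passed the lowest IgG library. Tsr1 was higher in anti-PD-L1 than in anti-CD8a by 1.47 ± 0.21 (adjusted p = 0.000833), and by 1.23 to 1.59 without any 1 library of these groups. Rrp12, which serves export, was called at 1.03 ± 0.18. Nob1, the nuclease that makes the final cut of the 18S RNA, was called at 0.66 ± 0.17, and the kinase Riok1 at 0.54 ± 0.18. Both lost the call without anti-PD-L1 replicate 2 (0.0922 for Nob1 and 0.286 for Riok1) and without anti-CD8a replicate 1 or 3. Riok1 lost it without anti-CD8a replicate 2 as well. Riok2, a related kinase, had the smallest difference of the 6: 19.4, 25.01 and 25.9 CPM in anti-PD-L1 overlapped 20.7, 19.0 and 15.2 in anti-CD8a (0.36 ± 0.18, adjusted p = 0.162). It had 22.3 to 35.6 CPM in IgG and 14.8 to 17.2 in control. Ltv1 missed narrowly at 0.41 ± 0.14 (adjusted p = 0.0503).

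Of 7 pre-60S factors, which build the large subunit, 5 were called higher and 0 lower. Gtpbp4, a nucleolar GTPase, had 176, 99.5, 176 and 186 CPM in IgG, 79.0, 122 and 69.7 in anti-PD-L1, 44.4, 45.9 and 42.5 in anti-CD8a, and 28.2 to 40.1 in control. The IgG libraries other than replicate 2 lay close together, with replicate 2 below them and under the highest anti-PD-L1 library. Its log2 fold change in anti-PD-L1 against anti-CD8a was 1.03 ± 0.23 (adjusted p = 0.00781). Pes1, Bop1 and Wdr12 form 1 complex, PeBoW, yet did not share a pattern. Pes1 was called at 0.94 ± 0.18 (adjusted p = 0.00312) and Bop1 at 0.51 ± 0.15 (adjusted p = 0.0308, or 0.077 to 0.118 without anti-PD-L1 replicate 1 or any anti-CD8a library). Wdr12 had 18.7, 18.1 and 20.1 CPM in anti-PD-L1, all below the 21.3, 22.5 and 20.8 CPM of anti-CD8a, but -0.18 ± 0.17 did not pass (adjusted p = 0.468). In IgG it had 13.6, 21.4, 17.6 and 11.7 CPM and in control 20.9 to 23.5, so 3 IgG libraries lay below every control library. Nop2, an RNA methyltransferase, was called at 0.77 ± 0.16 and Noc2l at 0.44 ± 0.15. Noc2l, at an adjusted p of 0.0499, lost the call without any 1 of 5 libraries (0.0814 to 0.212). Noc3l did not pass (0.48 ± 0.25).

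The box H/ACA proteins direct pseudouridylation of ribosomal RNA and also serve telomerase. Of 4, 2 were called higher and 0 lower. Nhp2 had 16.3, 20.8 and 17.9 CPM in anti-PD-L1 and 11.5, 12.7 and 11.9 in anti-CD8a, with 19.2 to 26.9 in IgG and 11.3 to 15.5 in control. The groups compared did not overlap, and 0.61 ± 0.16 passed (adjusted p = 0.0164), though not without anti-PD-L1 replicate 2 (0.0799) or anti-CD8a replicate 1 (0.0736). Nop10 was called at 0.54 ± 0.18 (adjusted p = 0.0483, and 0.0972 to 0.179 without any 1 of 5 libraries), and Gar1 did not pass at 0.56 ± 0.26. Dkc1, the enzyme itself, had 19.1, 20.4 and 19.995 CPM in anti-PD-L1, all below the 26.7, 21.8 and 22.8 CPM of anti-CD8a, but -0.26 ± 0.22 did not pass (adjusted p = 0.425). In IgG it had 19.2, 22.0, 16.7 and 9.03 CPM and in control 17.5 to 21.9, and replicate 4 of IgG was the lowest library of all.

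Ncl (nucleolin) and Npm1 (nucleophosmin) are abundant nucleolar proteins that bind RNA and histones. Ncl had 523, 358, 534 and 516 CPM in IgG, 224, 393 and 249 in anti-PD-L1, 184, 194 and 171 in anti-CD8a, and 115 to 174 in control. Npm1 had 203 to 362 CPM in IgG, 175, 272 and 172 in anti-PD-L1, 123, 122 and 139 in anti-CD8a, and 88.9 to 106 in control. In both genes anti-PD-L1 replicate 2 lay in the IgG range and the other 2 libraries between IgG and anti-CD8a. Npm1 was higher in anti-PD-L1 than in anti-CD8a by 0.69 ± 0.21 (adjusted p = 0.0311) and Ncl by 0.66 ± 0.22 (adjusted p = 0.0446). Without anti-PD-L1 replicate 2 the adjusted p was 0.181 for Npm1 and 0.259 for Ncl, and without any anti-CD8a library it was 0.0552 to 0.122 for both.

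RNA polymerase I makes the precursor itself, and 1 of its 4 genes was called higher and 0 lower. Polr1b, its second largest subunit, had 18.9, 21.9 and 19.9 CPM in anti-PD-L1 and 11.9, 12.6 and 11.3 in anti-CD8a. In IgG it had 21.4 to 23.4 CPM and in control 9.89 to 12.5, so the libraries fell into a high and a low range with nothing between. Its log2 fold change in anti-PD-L1 against anti-CD8a was 0.76 ± 0.13 (adjusted p = 0.00178). Rrn3, which brings the polymerase to the promoter, had 42.6, 55.9 and 46.3 CPM in anti-PD-L1 and 40.7, 42.0 and 41.0 in anti-CD8a, with 58.3 to 64.7 in IgG and 39.8 to 44.5 in control. Its 0.23 ± 0.12 did not pass (adjusted p = 0.191). Polr1a, the largest subunit, and Ubtf, which opens the ribosomal DNA, stood at 0.38 ± 0.19 and 0.53 ± 0.21 and did not pass; Ubtf passed without anti-PD-L1 replicate 1 (adjusted p = 0.0283).

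**Figure D3:**
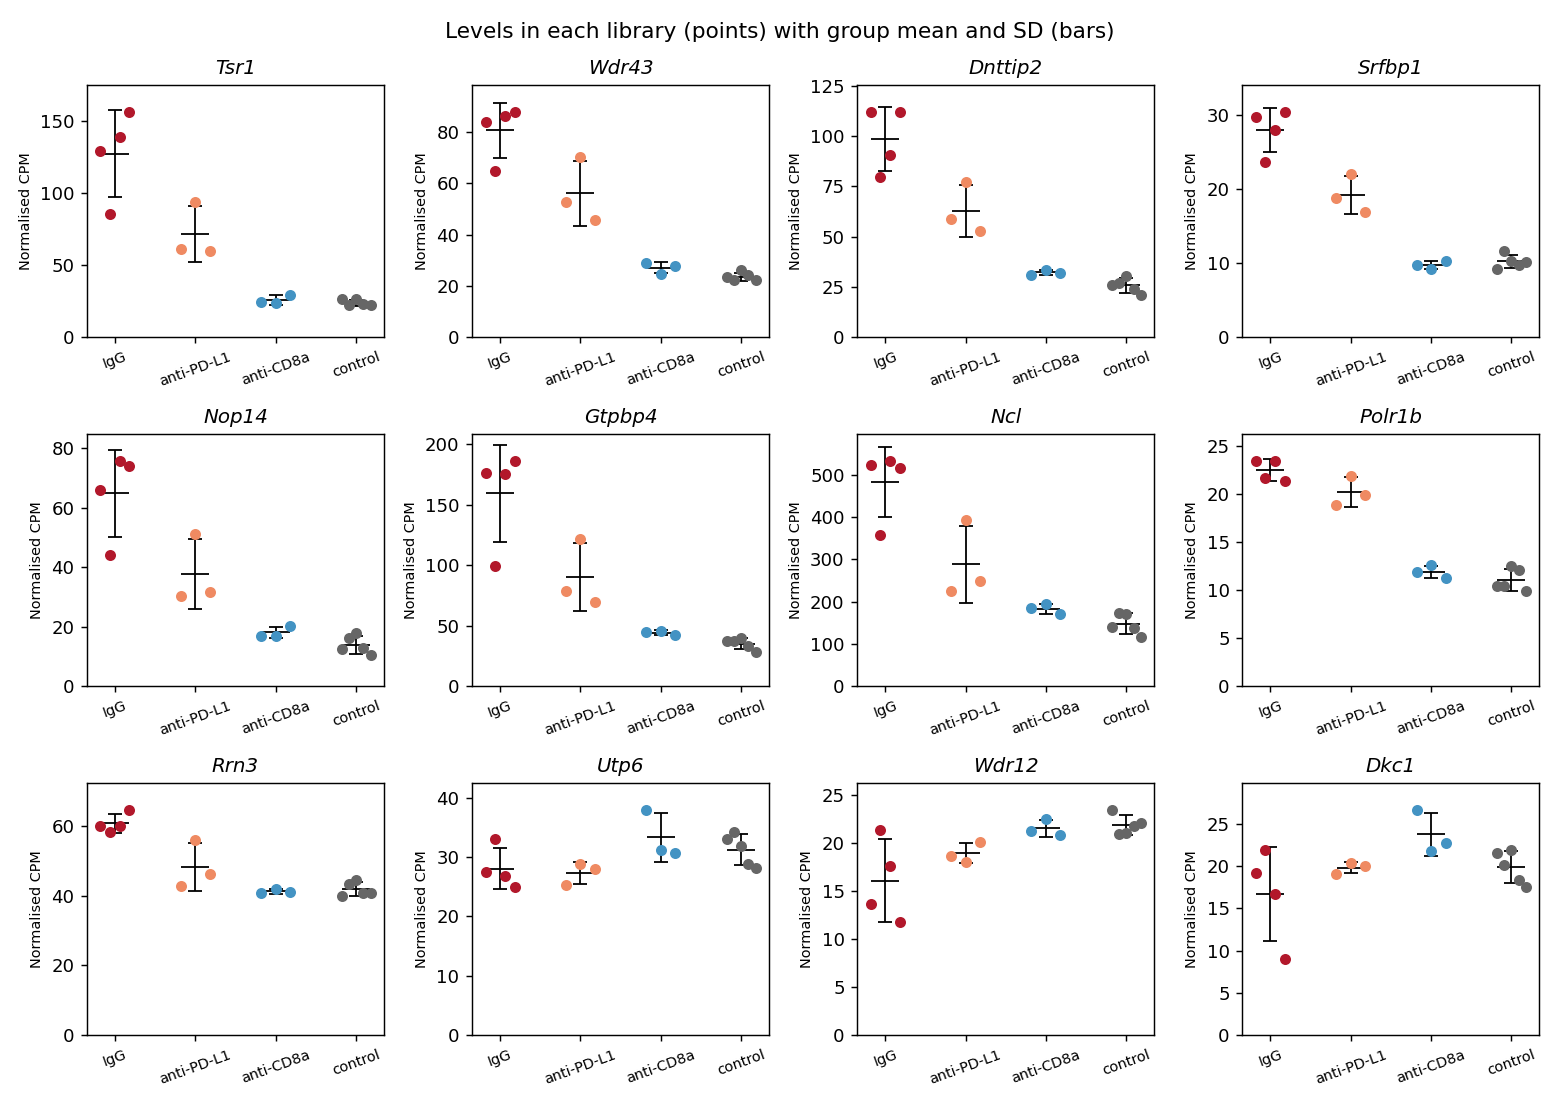
Normalised CPM of 12 genes in each library (points) with the group mean and SD (bars), each panel starting at 0. Tsr1, Wdr43, Dnttip2, Srfbp1, Nop14, Gtpbp4, Ncl and Polr1b are high in IgG, lower or equal in anti-PD-L1 and lowest in anti-CD8a and control, while Utp6, Wdr12 and Dkc1 are not.

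The next 4 comparisons each share a group with IgG against control, from which the set was chosen, so their counts are not independent of that choice. In anti-CD8a against IgG, 47 of the 51 genes were called lower and 1, Wdr12, higher, where 24.8% of all genes tested were lower and 23.2% higher. The median was -0.91 (range -2.30 to 0.51), against 0.02 over all genes tested. Tsr1 fell by 2.30 ± 0.21 (adjusted p = 9.61e-06) and was followed by Gtpbp4 and Nop14, each at -1.85. Wdr43 fell by 1.57 ± 0.16, Dnttip2 by 1.61 ± 0.17 and Srfbp1 by 1.52 ± 0.14. In 46 genes every anti-CD8a library lay below every IgG library, as in 24.7% of all genes tested. In this comparison 4 of 8 macrophage markers were called higher and 1 lower, 4 of 6 fibroblast markers higher with a median of 3.36, and 2 of 8 muscle fibre markers higher. Of the others tested, 1 of 4 satellite cell, 1 of 4 Schwann cell and the 1 T cell marker were called higher and 1 of 4 proliferation markers lower. Their part in the result was not tested.

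In anti-PD-L1 against control, 41 genes were called higher and 0 lower, where 20.8% of all genes tested were higher and 13.9% lower. The unadjusted p was under 0.05 for 45 higher and 0 lower, and DESeq2 called 40 and 0, with no share of all genes given for either. The median was 0.67 (range -0.20 to 1.58). Tsr1 was higher by 1.58 ± 0.18 (adjusted p = 4.89e-05), Dnttip2 by 1.29 ± 0.15, Wdr43 by 1.25 ± 0.14 and Srfbp1 by 0.91 ± 0.13. All 6 late pre-40S factors and 9 of the 10 single processome factors passed, the exception being Bms1 (0.30 ± 0.16). In this comparison 5 of 8 macrophage and 3 of 3 neutrophil markers were called higher, while 3 of 8 muscle fibre and 3 of 4 Schwann cell markers were called lower. Of 6 fibroblast markers, 1 was called higher and 3 lower. Of the others tested, 1 of 4 satellite cell and 1 of 4 proliferation markers were called higher, and the 1 T cell marker and 1 of 5 endothelial markers lower. The part of these cells was not tested.

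In anti-PD-L1 against IgG, 0 genes were called higher and 8 lower: Tsr1, Gtpbp4, Utp14a, Ncl, Utp3, Dnttip2, Pes1 and Srfbp1. Of all genes tested 3.96% were higher and 1.54% lower. The unadjusted p was under 0.05 for 1 higher and 24 lower, and DESeq2 called 0 and 19. The shares of all genes just given are not at that p or by DESeq2, so they cannot be set beside these counts. The median was -0.34 (range -0.83 to 0.31), and the called genes ran from Srfbp1, lower by 0.54 ± 0.13 on the log2 scale (adjusted p = 0.0336), to Tsr1, which fell by 0.83 ± 0.20 (adjusted p = 0.0299). Of the 51 genes, 6 had every anti-PD-L1 library below every IgG library, and in 1, Tbl3, every one lay above. Of the 14372 genes tested, 644 (4.48%) and 1065 separated in these directions. Of the 8 called genes, only Dnttip2 and Srfbp1 were among the 6. Leaving out replicate 1, 3 or 4 of IgG, or else replicate 1 or 3 of anti-PD-L1, left 0 genes called by edgeR. Leaving out replicate 2 of IgG gave 18 and leaving out replicate 2 of anti-PD-L1 gave 24, all lower. The median over the 51 genes lay between -0.47 and -0.25 when any 1 library of these groups was left out. In this comparison 6 of 8 macrophage, 4 of 6 fibroblast and 2 of 3 neutrophil markers were called higher and no other marker was called, and their part was not tested. Of the 51 genes, 46 had an anti-PD-L1 mean between the anti-CD8a and IgG means.

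In anti-CD8a against control, edgeR called 0 of the 51 genes, and 0.0139% of all genes tested were called in either direction. The unadjusted p was under 0.05 for 2 genes, both higher, and DESeq2 called 0. The median was 0.16 (range -0.23 to 0.37), against 0.01 over all genes tested. Of the 51, 42 genes lay above 0 and 9 below, where 7390 and 6981 of the 14372 genes tested did. In 10 genes every anti-CD8a library lay above every control library, and in 1 every one lay below. Of the 14372 genes tested, 745 and 629 separated in these directions. The anti-CD8a mean fell within the control range in 27 genes, above it in 23 and below it in 1, Tbl3. No such count is given over all genes. Of the 4 leading genes, Dnttip2 stood at 0.32 ± 0.16 (adjusted p = 0.666), Wdr43 at 0.20 ± 0.15, Tsr1 at 0.10 ± 0.19 and Srfbp1 at -0.07 ± 0.13.

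IgG against control, the comparison that led to the choice of genes, is described only. Of the 51, 48 had a log2 fold change above 0 and 3 below. The median log2 fold change was 1.02 (range -0.44 to 2.41). Tsr1 stood at 2.41, followed by Nop14 at 2.22, Gtpbp4 at 2.18 and Dnttip2 at 1.94, with Wdr43 at 1.77 and Srfbp1 at 1.45. The lowest were Tbl3 (0.19, or -0.059 with upper-quartile scaling), Utp6 (-0.15), Dkc1 (-0.25) and Wdr12 (-0.44). Upper-quartile scaling moved the median of all genes by -0.27 in this comparison, and by 0.25 in anti-CD8a against IgG. Fibroblast markers summed to 494 to 687 CPM in IgG, against 959 to 1327 in control. Schwann cell sums were 8.545 to 42.7 against 49.5 to 148, and satellite cell sums 5.09 to 12.7 against 13.8 to 18.4. Neutrophil sums were 2.60 to 8.60 against 0.353 to 3.68, and proliferation sums 28.4 to 47.1 against 22.3 to 25.5. Endothelial and muscle fibre sums overlapped. The part of these cells was not tested.

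Across the 51 genes, the log2 fold changes in anti-PD-L1 against anti-CD8a and in IgG against control had the same sign in all 51, with a Pearson r of 0.82 and a Spearman rho of 0.73. The 47 genes other than the leading 4 gave 0.77 and 0.68. These comparisons share no library, but they share the muscle, the scaling and the model, the genes were chosen on the second, and genes are not replicates, so no p is given. Heatr1 and Tbl3 stood off the trend: Heatr1 stood at 1.02 and 0.66, and Tbl3 at 0.73 and 0.19.

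**Figure D4:**
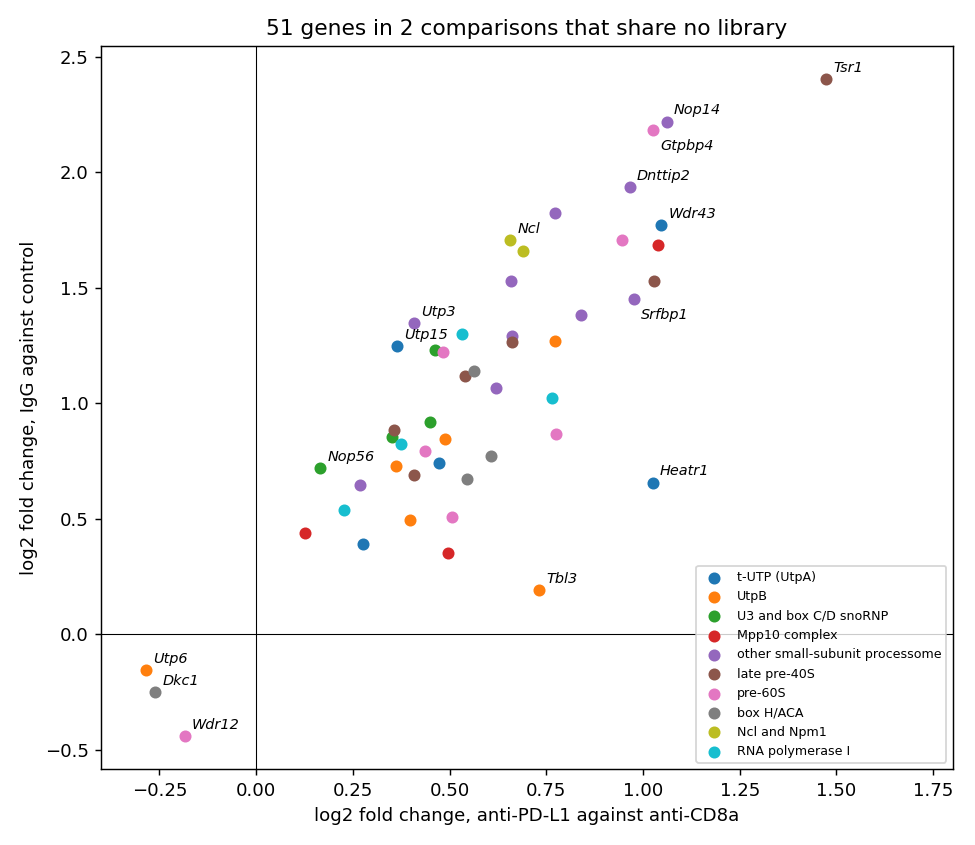
Each point is 1 of the 51 genes, coloured by role, with the log2 fold change in anti-PD-L1 against anti-CD8a on the horizontal axis and in IgG against control on the vertical axis. Tsr1 is at the upper right, Utp6, Dkc1 and Wdr12 are below 0 on both axes, and Heatr1 and Tbl3 lie to the right of the other points at their height.

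A list of 130 other ribosome assembly genes, drawn up with the 51 known, was counted in the same fits. Of 129 tested, 61 (47.3%) were called higher and 0 lower in anti-PD-L1 against anti-CD8a, with a median of 0.50. Of all genes tested, 12.1% were called higher and 7.65% lower. Within the list, 36 of 60 genes entered under the large subunit passed, as did 16 of 33 entered under the small-subunit processome. The counts were 3 of 11 in the polymerase I machinery, 4 of 15 in the exosome and processing, and 2 of 10 in snoRNP assembly. These headings are broad, and some genes could be placed under another. The largest changes were those of Gnl3 (nucleostemin), a nucleolar GTPase, with 44.1, 101 and 55.5 CPM in anti-PD-L1 and 22.7, 20.8 and 24.0 in anti-CD8a (1.57 ± 0.25, adjusted p = 0.00108), and of Taf1d, of the polymerase I selectivity factor (1.53 ± 0.42, adjusted p = 0.0192). Ddx27, an RNA helicase, followed at 1.38 ± 0.24 (adjusted p = 0.00179). In anti-PD-L1 against control 94 of the 129 were called higher and 0 lower, where 20.8% of all genes tested were higher and 13.9% lower. In anti-PD-L1 against IgG 1 was called higher and 7 lower (0.775% and 5.43%), where all genes tested gave 3.96% and 1.54%. In anti-CD8a against IgG 4 were called higher and 93 lower, where 23.2% of all genes tested were higher and 24.8% lower. In anti-CD8a against control 0 of the 129 were called by edgeR, where 0.0139% of all genes tested were called in either direction. At an unadjusted p under 0.05, 6 were higher and 0 lower. DESeq2 counts, and counts without 1 library, were taken for the 51 genes only.

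Myc, the known regulator, had 24.7, 13.96, 14.04 and 7.63 CPM in IgG, 11.2, 14.6 and 9.71 in anti-PD-L1, 4.95, 4.08 and 7.67 in anti-CD8a, and 2.69, 4.59, 5.11, 2.76 and 3.12 in control. The anti-PD-L1 libraries all lay above the anti-CD8a libraries, while 1 IgG library came down to the highest anti-CD8a value. Myc was higher in anti-PD-L1 than in anti-CD8a by 1.08 ± 0.36 (adjusted p = 0.0453) and than in control by 1.70 ± 0.32 (adjusted p = 0.00106). It was lower in anti-CD8a than in IgG (-1.44 ± 0.35, adjusted p = 0.00332). Its 0.61 ± 0.33 in anti-CD8a against control (adjusted p = 0.716) and -0.35 ± 0.33 in anti-PD-L1 against IgG (adjusted p = 0.512) did not pass. Within the anti-PD-L1 group Myc and the median of the 51 genes were both highest in replicate 2. Within the IgG group Myc was highest in replicate 1, and the median of the 51 genes in replicate 3. The part of Myc in the levels of these genes was not tested.

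**Figure D5:**
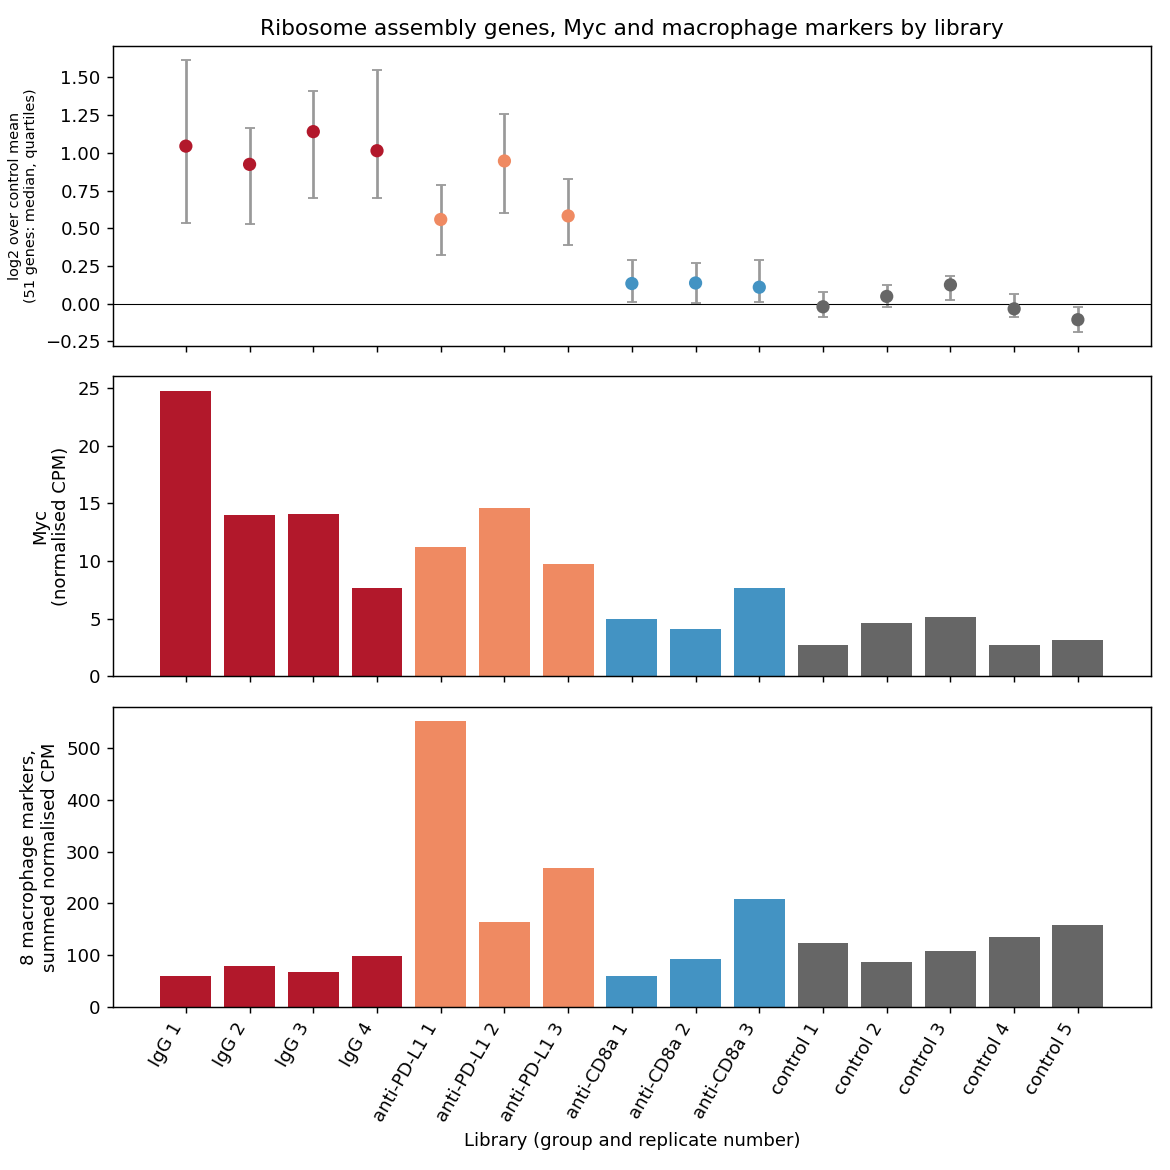
For each library, the top panel gives the median and quartiles of log2 over the control mean for the 51 genes, the middle panel Myc in normalised CPM, and the bottom panel the summed normalised CPM of 8 macrophage markers. The 51 genes and Myc are high in IgG and anti-PD-L1, and the macrophage sum is highest in anti-PD-L1 replicate 1 (552 CPM) and lies between 59.0 and 98.2 CPM in IgG.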

How the data were processed

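RNA-seq of 15 tibialis anterior libraries was analysed. Per the labels, the MGIEasy RNA Directional kit was used. Reads were handled with Trim Galore, STAR 2.7.9a and RSEM 1.3.3, per the submitters' processing notes; genome build, annotation and use of strand are not given in the sources used here. The deposited values per gene were expected counts and TPM, both from RSEM by the authors. Expected counts were rounded to whole numbers, and 11 of the 51 genes had values that were not whole (by over 0.005) in at least 1 library (Heatr1, Tbl3, Wdr3, Nop56, Fbl, Imp4, Tsr1, Riok2, Pes1, Noc2l and Npm1), so reads were divided with other genes and these levels are less certain. Genes with no symbol held at most 0.386% of a library and stayed in the fit.

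Groups came from the labels. One edgeR 4.0.16 model (R 4.3.3) held all 4 groups: filterByExpr, TMM scaling, quasi-likelihood F-test, 11 residual degrees of freedom, Benjamini-Hochberg adjustment over 14372 genes within each comparison, and a call at an adjusted p under 0.05. Standard errors are |log2 fold change|/√F. Levels are TMM-normalised CPM with SD; log2 levels used a prior count of 2. It was tested on simulated counts in which 200 genes had been changed. Floors of 3 counts cover counting error only. Alternatives were DESeq2 1.42.0, other scalings and filters, 2-group fits, a replicate block, omitted libraries and TPM with a pseudocount of 0.1.

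The 51 genes, the other lists and the alternatives were chosen with earlier results of these data known. Full values are given for Tsr1, Wdr43, Dnttip2 and Srfbp1 and for the genes of largest and smallest absolute change in anti-PD-L1 against anti-CD8a in each role; the 3 called other assembly genes of largest change and Myc are named, and other named genes were chosen after their values were seen.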

Additional observations from a re-analysis of the deposited data

Results flagged for a closer look

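In the IgG and the control group the highest and lowest library was set against the rest by Dixon's criterion. For the 51 genes and the per-library median of their log2 ratios to the control mean, it marked 5 of 104 groups of libraries. Chance marks about 1 in 20, or 5.2. Nop56 was low in IgG replicate 1, at 29.0 CPM with the next library at 38.6. Gtpbp4 was low in IgG replicate 2, at 99.5 CPM with the next at 176, and Ncl in the same library, at 358 CPM with the next at 516. Gar1, a box H/ACA protein, was high in IgG replicate 3, at 23.2 CPM with the next at 13.6, and in control replicate 3, at 8.39 CPM with the next at 7.08. IgG replicate 2 also gave the lowest IgG value in 30 of the 51 genes.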

How the results depend on the processing

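In anti-PD-L1 against anti-CD8a, the 29 calls became 18 with a replicate block, 14 with the 2 groups alone, 16 without replicate 2 of both IgG and anti-PD-L1, and 14 to 29 without 1 library each. None reversed, and 13 of the 29 genes kept the call under all 16 alternatives. In anti-PD-L1 against IgG, the 8 calls became 19 with DESeq2, 0 with a replicate block, 0 with the 2 groups alone, 30 (2 higher, 28 lower) without both replicates 2, and 0 to 24 without 1 library each; none of the 8 held under all 17. The cause of these changes in the counts was not tested. With 1 library left out, counts were 42 to 50 in anti-CD8a against IgG, 31 to 41 in anti-PD-L1 against control and 0 in anti-CD8a against control.

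Of the calls, 36 of 48 in anti-CD8a against IgG and 28 of 41 in anti-PD-L1 against control held under every alternative run. On TPM the per-library median over control was 1.21 in IgG, 1.05 in anti-PD-L1 and 0.17 in anti-CD8a. Tbl3 turned to -0.059 in IgG against control with upper-quartile scaling. Dkc1, at -0.0051 in anti-PD-L1 against control, turned to 0.0040 without a filter, and ran from -0.0505 to 0.0275 without 1 library each (above 0 without control replicate 1 or 3 or anti-PD-L1 replicate 1). Upper-quartile scaling moved the median of all genes by 0.12 in anti-PD-L1 against IgG.

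Replicate numbers are not stated to pair the libraries. Deviations from the group mean correlated above 0.1 in 3 of 19 same-numbered pairs (-0.35 to 0.18). With 3 to 5 libraries per group, this cannot exclude pairing. The groups of 3 limit what a missed threshold can say.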

Other observations

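Gas5 and the Snhg genes are noncoding genes that host small nucleolar RNAs in their introns, and the spliced RNA of some is short-lived. Most of those listed moved with the 51 genes. Of 10 such host genes on a list drawn up with the 51 known, 8 were called higher in anti-PD-L1 against anti-CD8a and 0 lower (edgeR). Of all genes tested, 12.1% were called higher and 7.65% lower. The median of the 10 was 1.32, against 0.05 over all genes tested. Snhg12 had 9.38, 63.6 and 21.1 CPM in anti-PD-L1 and 6.15, 4.88 and 7.22 in anti-CD8a (2.37 ± 0.54, adjusted p = 0.00818), with 32.9 to 114 in IgG and 4.36 to 7.51 in control. Snhg1 had 18.3, 60.9 and 21.6 CPM in anti-PD-L1 and 7.84, 6.49 and 8.51 in anti-CD8a (2.14 ± 0.39, adjusted p = 0.00228), with 36.0 to 82.9 in IgG and 4.95 to 7.75 in control. Gas5 had 72.8, 184 and 101 CPM in anti-PD-L1 and 48.5, 41.2 and 50.4 in anti-CD8a (1.35 ± 0.32, adjusted p = 0.00937), with 132 to 297 in IgG and 29.7 to 45.3 in control. In all 3, anti-PD-L1 replicate 2 lay far above the other 2 anti-PD-L1 libraries and within or near the IgG range. The calls of the host genes were not counted without that library. Snhg17 (0.89 ± 0.41) and Snhg20 (-0.13 ± 0.37) did not pass. The host genes were named after their values were seen. In anti-PD-L1 against IgG 0 of 10 were called by edgeR, with 0 higher and 7 lower at an unadjusted p under 0.05. Of all genes tested, edgeR called 3.96% higher and 1.54% lower there.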
